A study of Mus musculus with 9 samples.

Results

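Ligands and receptors of the tumour necrosis factor (TNF) superfamily were followed across mouse bone marrow-derived macrophages (BMDMs), the primary macrophages that grow out of bone marrow cells in culture. The 8 genes were chosen by mouse symbol and comprised 5 ligands (Tnf, Tnfsf9, Tnfsf10, Tnfsf13b and Tnfsf15) and 3 receptors (Tnfrsf1a, Tnfrsf1b and Fas), 8 of the 22524 genes counted by RNA sequencing. The 9 libraries formed 3 groups of 3, all from C57BL/6 cells grown for 7 days. The first group was untreated wild-type cells, called untreated control here. The second was wild-type cells after 6 h of lipopolysaccharide (LPS), a component of the bacterial outer membrane that activates macrophages through Toll-like receptor signalling, called LPS control. The third was SRF-KO cells after 6 h of LPS. SRF is serum response factor, a transcription factor known for its actin cytoskeleton and immediate-early target genes. The stated aim was to examine the effect of LPS and the part that SRF plays in it. The labels do not say how the knockout was made, and SRF-KO cells without LPS were not analysed here. The third group thus differs from untreated control in both genotype and LPS.

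TNF superfamily ligands are made as trimeric membrane proteins, and several, TNF among them, are also cut off the cell as soluble cytokines. Their receptors fall into those that carry an intracellular death domain, such as TNFR1 (Tnfrsf1a) and Fas, which can lead to caspase activation, and those that recruit TRAF adaptors alone, such as TNFR2 (Tnfrsf1b). Macrophages are a main source of TNF after contact with bacterial products, and they also respond to it.

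The libraries held between 15321839 and 24912173 assigned reads, and each of the 8 genes passed the filter on low counts, as did 11560 genes in all. Levels are given as CPM, the count of a gene over the library size, with TMM scaling, which adjusts library sizes so that a trimmed average gene is level between libraries. Differences are log2 fold changes with their standard error (SE), and a gene passed at an adjusted p below 0.05 in edgeR's quasi-likelihood test. Srf itself was at 44.3 ± 4.54 CPM (SD, n = 3) in untreated control, 57.6 ± 2.17 in LPS control and 1.05 ± 0.438 in SRF-KO, low in the group labelled as its knockout. All 8 macrophage markers were detected, with a summed level of 16688 to 17212, 22928 to 23416 and 24197 to 24421 CPM in the 3 groups, of which Lyz2 made up the largest part. In SRF-KO 3 of the 8 were higher and 5 lower than in LPS control (median -0.78), where 39.1% of all tested genes were higher and 37.9% lower. The higher ones were Cd14 (5356 against 3191 CPM), Lyz2 (12296 against 8925 CPM) and Csf1r (2938 against 2286 CPM). Among the lower ones were Fcgr1 (84.2 against 1853 CPM), Adgre1 (1701 against 3689 CPM) and Cd68 (553 against 1410 CPM). The T and NK cell markers Cd3d, Cd3g, Nkg7 and Ncr1 were at 0 counts in all 9 libraries. The 10 T and NK cell markers summed to 3.20 to 5.46, 2.07 to 2.66 and 0.340 to 0.406 CPM, and the 6 B cell markers to 2.94 to 4.12, 1.68 to 2.74 and 0.580 to 0.991 CPM. Stromal and endothelial markers (7 listed, with Col1a1 and Col3a1 at 0 throughout) summed to 17.9 to 21.2, 62.6 to 70.2 and 9.15 to 11.1 CPM. Most of this was Kdr, at 18.2, 58.8 and 8.13 CPM. The 9 neutrophil markers, with Elane at 0 throughout, summed to 49.8 to 52.3, 245 to 259 and 34.4 to 39.1 CPM, mostly Csf3r in both control groups, and Csf3r was lower in SRF-KO than in LPS control (-3.78). S100a8, at 0.644, 5.11 and 16.1 CPM, and Camp, at 0, 1.08 and 2.60 CPM, were higher in SRF-KO than in LPS control. The 6 dendritic cell markers summed to 0.801 to 0.910, 3.11 to 4.43 and 11.4 to 12.4 CPM. Ccr7 was the largest part of that sum in each group, at 0.478, 2.75 and 11.1 CPM, and the only one with enough counts to test. The 6 mast cell and basophil markers summed to at most 0.622 CPM in any library. Reads of 4 Y-linked genes (Uty, Ddx3y, Kdm5d and Eif2s3y) summed to 7337, 5991 and 6 counts in the 3 groups. For every gene compared between SRF-KO and a control group, genotype and this near absence of Y-linked reads therefore cannot be told apart. The part of these marker and Y-linked differences in the results was not tested. In bulk RNA, fewer cells of a type and less RNA per cell cannot be told apart.

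LPS raised 7 of the 8 genes, and the eighth, Tnfsf13b, did not pass. Across all tested genes 81.7% were called, 40.8% higher and 40.8% lower. The median log2 fold change of the 8 was 3.64, against -0.02 over all tested genes. All 7 rose at least 2-fold, a size reached upward by 15.6% of tested genes. In 7 of the 8 genes the libraries of the 2 groups did not overlap, as for 82.1% of tested genes. The scaling matters for the level of all genes: with library totals in place of TMM factors the all-gene median was -0.57, the genes called higher were 21.0% and those called lower 67.8%. With library totals the same count of 7 was called higher, with a median of 3.09, but the rise of Tnfrsf1a (0.67) was then less than 2-fold.

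The second comparison set SRF-KO against LPS control. Tnfsf10, Tnfsf9, Tnfrsf1a and Tnfrsf1b were lower in SRF-KO than in LPS control, Tnfsf15 and Fas were higher, and Tnf and Tnfsf13b did not pass. Since 39.1% of tested genes were called higher and 37.9% lower, or 77.0% in all, the 6 calls among 8 genes are close to the background. The groups did not overlap in 7 of the 8 genes, against 78.0% of tested genes. At 2-fold or more, Tnfsf10 was lower (11.2% of tested genes were) and Tnfsf15 higher (13.9%). The median of the 8 was -0.17, against 0.01 over all tested genes. With library totals the medians were 0.19 and 0.37, and 4 of the genes were called higher and 3 lower, where 61.1% and 21.1% of all tested genes were. This comparison shares the LPS control libraries with the comparison above, so the values of a gene in the 2 are not independent.

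**Figure D1:**
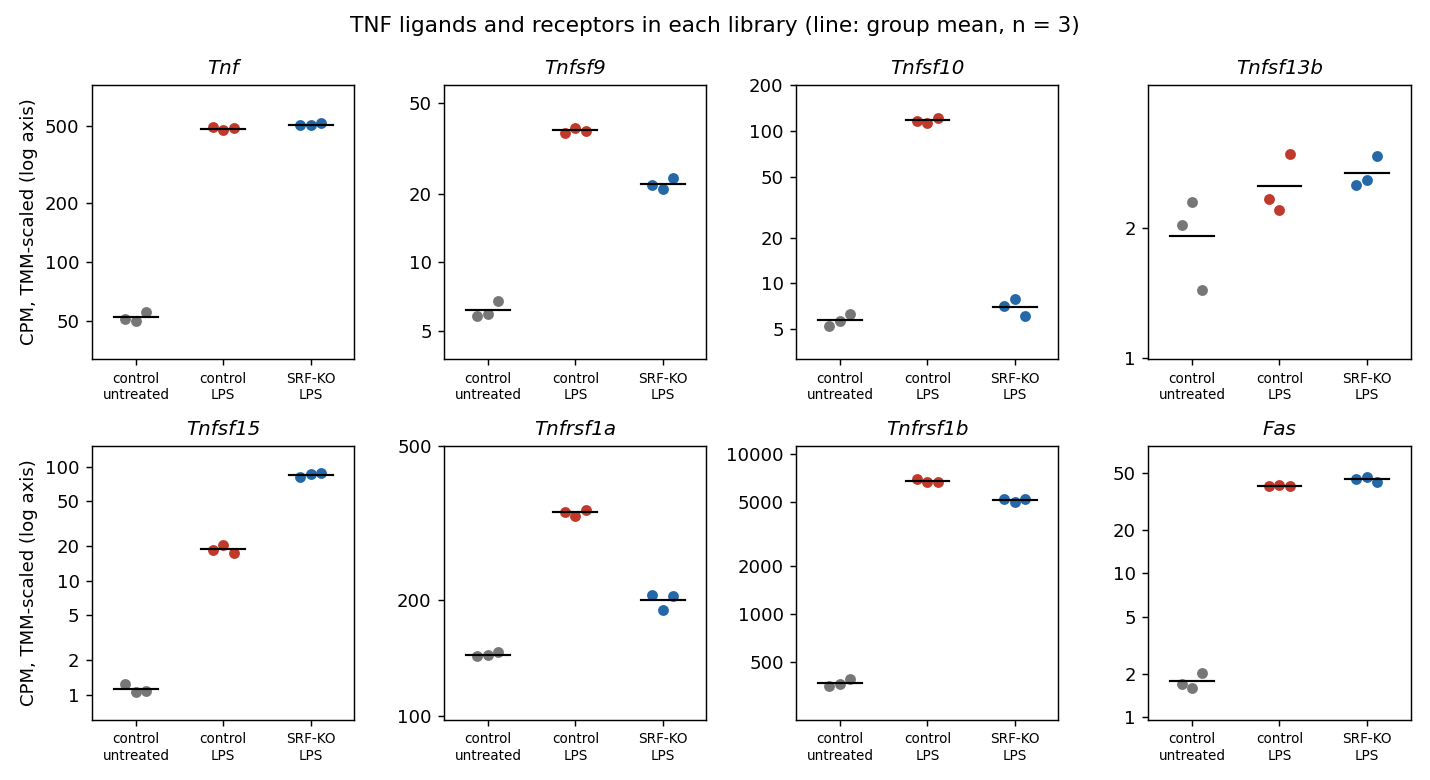
Level of each of the 8 genes in every library, in TMM-scaled CPM on a log axis that differs between panels, with 3 points per group and a line at the group mean. Tnfsf10 in SRF-KO lies near its untreated level (7.00 against 5.70 CPM), while Tnfsf15 lies above its LPS control level (85.0 against 18.9 CPM).

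Among the ligands, Tnf encodes TNF, the founding cytokine of the family and a main driver of acute inflammation. Its gene (ENSMUSG00000024401) is on GRCm38 chromosome 17 from 35199381 to 35202007, minus strand. Its level was 50.8, 49.9 and 55.4 CPM in untreated control, 492, 474 and 485 CPM in LPS control, and 502, 503 and 515 CPM in SRF-KO. Both LPS groups were far above the untreated one, and the 3 SRF-KO libraries were just above the 3 LPS control libraries. LPS raised Tnf 9.31-fold (log2 fold change 3.22, SE 0.0442, edgeR adjusted p = 6.69e-39). Between SRF-KO and LPS control the difference was 0.07 (SE 0.0374, edgeR adjusted p = 0.102), which did not pass. That outcome depends on the scaling, since the difference was 0.17 with upper quartile scaling (adjusted p = 9.94e-05) and 0.42 with library totals (adjusted p = 4.57e-13). The median over all tested genes also moved, from 0.01 with TMM to 0.12 with upper quartile scaling and 0.37 with library totals. No setting that was tried placed Tnf lower in SRF-KO.

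The 250 bases before the RefSeq start of Tnf are shown because Tnf was the most abundant of the 5 ligands per length in every group. RefSeq sequences of build GRCm38.p6 were matched by symbol for 7 of the 8 genes and not for Tnfsf9. Capitals mark motif matches, searched on both strands in the 250 bases upstream: GGGA and TTCC with 2 bases between them for NF-kB, GAAA and a second GAAA with 2 bases between them for the interferon response element, AANNGAAA for the core bound by interferon regulatory factors (IRF core), TGANTCA for AP-1, TATAAA for the TATA box and the CArG box, the site bound by SRF. The IRF core is contained in the interferon response element, so a match of the element is also a match of the core. Of 32851 promoters, 1.21% held the NF-kB letters, 2.98% the interferon response element, 21.3% the IRF core, 6.75% AP-1, 12.4% the TATA box and 1.47% the CArG box. The Tnf window, chr17:35202008-35202257 on the minus strand, held a TATA box 29 to 24 bases before the start and no other match.
Tnf promoter: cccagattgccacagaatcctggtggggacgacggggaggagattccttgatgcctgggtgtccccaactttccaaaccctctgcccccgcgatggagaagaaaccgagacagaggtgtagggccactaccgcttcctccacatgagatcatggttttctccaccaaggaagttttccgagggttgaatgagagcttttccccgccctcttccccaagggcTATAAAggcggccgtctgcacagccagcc

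Tnf mRNA is also known for AU-rich elements in its 3' untranslated region (UTR), at which proteins such as tristetraprolin shorten its life. In the longest 3' UTR annotated in GENCODE mouse release 21, the nonamer TTATTTATT occurred 5 times in Tnf (764 bases) and 1 time in Tnfsf13b (3631 bases), and it was not found in the other 6 genes. Of 11374 tested genes with an annotated 3' UTR, 926 (8.14%) held the nonamer and 75 (0.659%) held 3 or more copies. The 30 bases that hold most of the Tnf copies, which overlap, are shown beside the single Tnfsf13b site because the contrast in copy number is plain in the letters. Capitals mark the nonamer.
Tnf site: ttaTTATTTATTATTTATTTATTATTTATT
Tnfsf13b site: attggcccatTTATTTATTgaattgtttgg

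Zfp36, which encodes tristetraprolin, was at 140 ± 5.14, 696 ± 27.3 and 242 ± 6.75 CPM (SD, n = 3) in untreated control, LPS control and SRF-KO. It rose with LPS (2.32, SE 0.0413, edgeR adjusted p = 3.45e-35) and was lower in SRF-KO (-1.52, SE 0.0396, edgeR adjusted p = 1.45e-29). Its relative Zfp36l2 fell with LPS, from 172 ± 10.4 to 55.3 ± 3.07 CPM, and was at 109 ± 5.35 CPM in SRF-KO, higher than in LPS control by 0.99. Zc3h12a encodes regnase-1, an endonuclease of inflammatory mRNAs, and went from 34.7 to 280 CPM with LPS and stood at 191 CPM in SRF-KO (a difference of -0.55 from LPS control). Mapkapk2 encodes the kinase that restrains tristetraprolin, and went from 202 to 1180 CPM and stood at 830 CPM in SRF-KO (-0.51). All of these differences passed. Of the 11 genes listed as acting on Tnf mRNA, 5 were higher and 5 lower with LPS (median 0.02), and 6 were higher and 3 lower in SRF-KO than in LPS control (median 0.14). The 6 were Zfp36l2, Mapk14, Khsrp, Hnrnpd, Elavl1 and Rc3h1, and the 3 were Zfp36, Zc3h12a and Mapkapk2. With library totals 4 were higher and 7 lower with LPS, and 8 higher and 3 lower in SRF-KO. Shares over all tested genes were 40.8% higher and 40.8% lower with LPS (with library totals 21.0% and 67.8%). For SRF-KO these shares were 39.1% and 37.9% (with library totals 61.1% and 21.1%).

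Release of TNF from the membrane is carried out by the protease encoded by Adam17. Adam17 rose with LPS from 283 ± 2.07 to 588 ± 16.4 CPM (1.05, SE 0.0378, edgeR adjusted p = 3.98e-25) and was at 592 ± 14.6 CPM in SRF-KO. The difference between the 2 LPS groups was 0.01 (SE 0.0367, edgeR adjusted p = 0.796), and 0.37 with library totals (adjusted p = 1.44e-11). The all-gene medians were also 0.01 and 0.37 in these settings. Rhbdf2 encodes iRhom2, which brings the protease to the cell surface, and its levels were 79.9, 381 and 266 CPM, with a log2 fold change of 2.25 for LPS and -0.52 for SRF-KO against LPS control. Frmd8, whose product stabilises iRhom proteins, was at 52.6, 117 and 87.9 CPM. It rose with LPS (1.15), and its difference of -0.41 in SRF-KO did not hold with library totals (-0.06, adjusted p = 0.288). Adam10, a related protease with other main substrates, fell with LPS from 175 to 104 CPM and was at 162 CPM in SRF-KO, a difference of 0.64 from LPS control. Of 6 shedding genes, 5 had enough counts: 3 rose and 1 fell with LPS, and 1 was higher and 2 lower in SRF-KO (median 0.01). With library totals 3 were higher and 1 lower in SRF-KO (median 0.37). Over all tested genes 40.8% rose and 40.8% fell with LPS. The all-gene shares for SRF-KO were 39.1% higher and 37.9% lower, and 61.1% and 21.1% with library totals.

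Tnfsf10 encodes TRAIL, a ligand that can trigger apoptosis in target cells and is a known interferon-stimulated gene. The gene (ENSMUSG00000039304) lies on chromosome 3 from 27317028 to 27342427, plus strand. It was at 5.21, 5.65 and 6.25 CPM in untreated control, 116, 114 and 123 CPM in LPS control, and 7.08, 7.86 and 6.07 CPM in SRF-KO. The SRF-KO libraries overlapped the untreated ones and lay far below those of LPS control. LPS raised it 20.7-fold (4.37, SE 0.0745, edgeR adjusted p = 8.14e-36), and it was 16.6-fold lower in SRF-KO than in LPS control (-4.05, SE 0.0706, edgeR adjusted p = 3.4e-35). With library totals that difference was -3.70. Against untreated control, SRF-KO with LPS was higher by 0.32 (SE 0.111, edgeR adjusted p = 0.00901), a difference that did not pass with library totals (0.13, adjusted p = 0.295) or without the second SRF-KO library (0.21, adjusted p = 0.114) or the first untreated library (0.26, adjusted p = 0.0531).

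Tnfsf15 encodes TL1A, a ligand that costimulates lymphocytes. The gene (ENSMUSG00000050395) lies on chromosome 4 from 63727084 to 63745113, minus strand. Its level was 1.25, 1.05 and 1.07 CPM in untreated control (20 to 26 reads a library), 18.5, 20.7 and 17.4 CPM in LPS control, and 81.1, 86.1 and 87.8 CPM in SRF-KO. The 3 groups were well apart, in that order. LPS raised Tnfsf15 16.7-fold (4.06, SE 0.134, edgeR adjusted p = 2.59e-26), and it was 4.51-fold higher in SRF-KO than in LPS control (2.17, SE 0.0634, edgeR adjusted p = 6.75e-28; with library totals 2.53). From untreated control to SRF-KO with LPS the difference was 6.24 (SE 0.0986, edgeR adjusted p = 7.97e-37), the largest of the 8 genes in that comparison.

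The upstream windows of Tnfsf10 and Tnfsf15 are set side by side because these 2 ligands differed most, and in opposite directions, between SRF-KO and LPS control. They cover chr3:27316827-27317054 on the plus strand and chr4:63745114-63745309 on the minus strand, and end short of the RefSeq start. The last 27 bases shown for Tnfsf10 lie inside the GENCODE gene, whose annotated start is upstream of the RefSeq start. They hold its second match and the end of its first, which spans that annotated start. Capitals mark the IRF core.
Tnfsf10 promoter: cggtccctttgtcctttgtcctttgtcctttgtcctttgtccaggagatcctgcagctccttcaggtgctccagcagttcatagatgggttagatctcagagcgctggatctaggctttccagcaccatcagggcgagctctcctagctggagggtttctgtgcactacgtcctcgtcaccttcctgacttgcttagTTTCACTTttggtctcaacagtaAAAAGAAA
Tnfsf15 promoter: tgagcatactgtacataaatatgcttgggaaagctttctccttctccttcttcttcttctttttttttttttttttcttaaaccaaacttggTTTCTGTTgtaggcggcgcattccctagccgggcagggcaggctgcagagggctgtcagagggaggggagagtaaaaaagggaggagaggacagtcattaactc
The Tnfsf10 window held the IRF core in 2 places, 53 to 46 bases before the RefSeq start on the opposite strand and 30 to 23 bases before it on the gene's strand. Tnfsf15 held 1, 158 to 151 bases before its start on the opposite strand. Neither window held the interferon response element, the NF-kB letters or a CArG box. Of the other members, Tnfrsf1b held an interferon response element 10 to 1 bases before its start, and Fas held an AP-1 match and an IRF core. Tnfsf13b held no match before its first RefSeq start, and before its second start an interferon response element 16 to 7 bases upstream, further IRF cores and an AP-1 match. All the Tnfsf13b matches lie inside the GENCODE gene, whose annotated start is upstream of that second start. Tnfrsf1a held none of the motifs. The CArG box and the NF-kB letters were found in none of the windows of the 7 genes.

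Tnfsf9 encodes the ligand of CD137, a costimulatory receptor of T cells. The gene (ENSMUSG00000035678) lies on chromosome 17 from 57105325 to 57107757, plus strand. It was at 5.79, 5.94 and 6.73 CPM in untreated control, 37.2, 39.1 and 37.8 CPM in LPS control, and 21.8, 21.0 and 23.4 CPM in SRF-KO. The groups did not overlap, and SRF-KO lay between the other two. LPS raised it 6.21-fold (2.63, SE 0.0834, edgeR adjusted p = 6.55e-27), and it was 1.73-fold lower in SRF-KO than in LPS control (-0.79, SE 0.0667, edgeR adjusted p = 1.85e-13; with library totals -0.44). Exons of an antisense noncoding gene, Gm11110, overlap those of Tnfsf9, and the strand setting of the counting is not given in the sources used here. Gm11110 was at 2.99 ± 0.311, 3.86 ± 0.332 and 5.19 ± 0.128 CPM (SD, n = 3) in the 3 groups, and its reads and those of Tnfsf9 may not be fully separated.

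Tnfsf13b encodes BAFF, a survival factor of B cells. The gene (ENSMUSG00000031497) lies on chromosome 8 from 10006467 to 10039072, plus strand. It was at 2.03, 2.30 and 1.44 CPM in untreated control, 2.34, 2.21 and 2.97 CPM in LPS control, and 2.52, 2.59 and 2.95 CPM in SRF-KO, from 27 to 67 reads a library. Values of LPS control overlapped those of both other groups. Neither LPS (0.38, SE 0.214, edgeR adjusted p = 0.0979) nor SRF-KO under LPS (0.08, SE 0.199, edgeR adjusted p = 0.718) gave a difference that passed. The estimate for LPS was -0.17 with library totals and 0.53 without the second untreated library (adjusted p = 0.0450), so its direction and call were not settled at this depth. SRF-KO with LPS against untreated control passed (0.46, SE 0.193, edgeR adjusted p = 0.0284), but not with DESeq2 (adjusted p = 0.0687), library totals (0.27, adjusted p = 0.197) or upper quartile scaling (0.34, adjusted p = 0.105).

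The receptors for TNF itself are encoded by Tnfrsf1a and Tnfrsf1b. Tnfrsf1a (ENSMUSG00000030341, chromosome 6 from 125349362 to 125362484, plus strand) encodes the death domain receptor found on most cell types. Its level was 143, 144 and 146 CPM in untreated control, 336, 330 and 342 CPM in LPS control, and 206, 188 and 204 CPM in SRF-KO. SRF-KO lay between the other groups, nearer to the untreated one. LPS raised it 2.33-fold (1.22, SE 0.0402, edgeR adjusted p = 2.49e-26), the smallest of the 7 rises, and by 0.67 with library totals. It was 1.69-fold lower in SRF-KO than in LPS control (-0.75, SE 0.0392, edgeR adjusted p = 9.77e-20, and -0.40 with library totals).

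Tnfrsf1b (ENSMUSG00000028599, chromosome 4 from 145213463 to 145246870, minus strand) encodes TNFR2, whose expression is restricted largely to immune and endothelial cells. It was at 351, 360 and 390 CPM in untreated control, 6934, 6681 and 6692 CPM in LPS control, and 5190, 5004 and 5224 CPM in SRF-KO. Both LPS groups were more than 10 times the untreated level, with SRF-KO below LPS control. LPS raised it 18.4-fold (4.21, SE 0.0468, edgeR adjusted p = 7.07e-42). In SRF-KO it was 1.32-fold lower than in LPS control (-0.40, SE 0.0406, edgeR adjusted p = 3.33e-11), a call lost with library totals (-0.04, adjusted p = 0.325).

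The ratio of Tnfrsf1b to Tnfrsf1a counts within a library does not depend on the scaling. It was between 2.45 and 2.66 in the untreated control libraries, 20.6, 20.2 and 19.6 in LPS control, and 25.2, 26.6 and 25.6 in SRF-KO. The 3 groups did not overlap. On the log2 scale the ratio was 1.34 ± 0.0618, 4.33 ± 0.0374 and 4.69 ± 0.0419 (SD, n = 3), a difference of 2.99 with LPS and of 0.36 between SRF-KO and LPS control. Each of these gave p = 0.1 in an exact two-sided permutation test, the smallest value that 3 libraries against 3 allow. Leaving out any 1 library kept the second difference between 0.33 and 0.37.

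Fas encodes the death receptor for Fas ligand. The gene (ENSMUSG00000024778) lies on chromosome 19 from 34290666 to 34327772, plus strand. It was at 1.69, 1.58 and 2.03 CPM in untreated control (33 to 38 reads a library), 40.7, 41.5 and 40.9 CPM in LPS control, and 45.8, 46.9 and 43.6 CPM in SRF-KO. The SRF-KO libraries lay just above those of LPS control. LPS raised Fas 23.3-fold (4.55, SE 0.101, edgeR adjusted p = 5.49e-32), the largest rise of the 8 genes. The difference of 0.15 in SRF-KO (SE 0.0575, edgeR adjusted p = 0.0179) passed, but not with DESeq2 (0.14, adjusted p = 0.0612) or without the second SRF-KO library (0.12, adjusted p = 0.0788). With library totals it was 0.51 (adjusted p = 4.03e-10), against an all-gene median of 0.37.

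**Figure D2:**
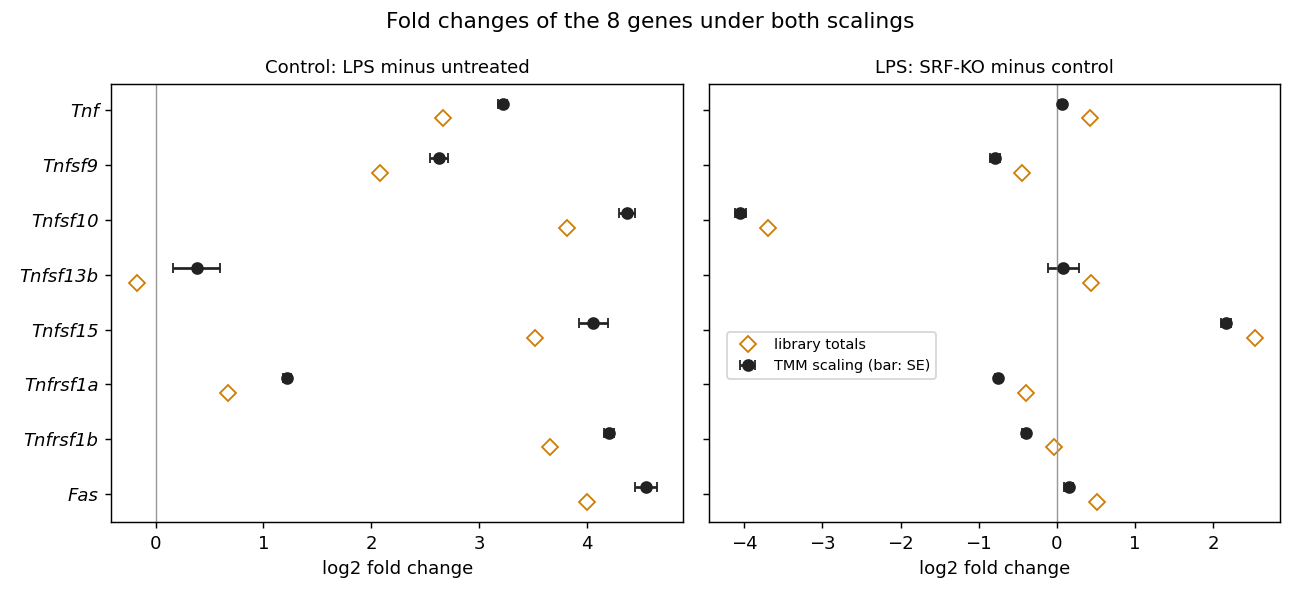
Log2 fold changes of the 8 genes, LPS control minus untreated control on the left and SRF-KO minus LPS control on the right, with TMM scaling (filled circles, bars are SE) and with library totals (open diamonds). On the right Tnfsf10 stands at -4.05 and Tnfsf15 at 2.17, and Tnfrsf1b moves from -0.40 to -0.04 with library totals.

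Compared with untreated control, SRF-KO cells under LPS had higher levels of all 8 genes (39.4% of tested genes were called higher), with a median of 2.56 against -0.01 over all tested genes. Both genotype and LPS differ in this comparison, and it shares its libraries with the other two. Tnfsf15, Fas, Tnfrsf1b and Tnf were higher by 6.24, 4.70, 3.81 and 3.29, Tnfsf9 by 1.84, and Tnfrsf1a, Tnfsf13b and Tnfsf10 by 0.46, 0.46 and 0.32. With library totals 6 of the 8 passed, all but Tnfsf13b and Tnfsf10, against 29.8% of tested genes called higher.

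Levels were compared between genes as CPM per kilobase of exon. In untreated control the order was Tnfrsf1b (96.1), Tnfrsf1a (55.8), Tnf (31.7), Tnfsf9 (4.77), Tnfsf10 (1.08), Fas (0.856), Tnfsf15 (0.336) and Tnfsf13b (0.280), and of these neighbours only the last pair overlapped between libraries. LPS control had Tnfrsf1b (1773) at the top, then Tnf (295), which passed Tnfrsf1a (130), and Tnfsf9 (29.5), Tnfsf10 (22.3), Fas (19.9), Tnfsf15 (5.64) and Tnfsf13b (0.365). SRF-KO kept Tnfrsf1b (1346), Tnf (309) and Tnfrsf1a (77.0) in front, but Tnfsf15 (25.4) and Fas (22.0) stood above Tnfsf9 (17.1), and Tnfsf10 (1.33) stood next to last, above Tnfsf13b (0.391). No neighbours overlapped in the 2 LPS groups. Of the summed per-length level of the 5 ligands, Tnf made up 82.8% to 83.4% in untreated control, 83.2% to 84.1% in LPS control and 87.3% to 87.7% in SRF-KO. The share of Tnfsf10 was 2.67% to 2.92%, 6.15% to 6.60% and 0.320% to 0.425%, and that of Tnfsf15 0.784% to 1.01%, 1.47% to 1.78% and 6.94% to 7.33%. Tnfsf15 therefore took a larger share than Tnfsf10 only in SRF-KO. Of the 3 receptors, Tnfrsf1b made up 62.1% to 64.0% in untreated control, 92.0% to 92.4% in LPS control and 93.0% to 93.2% in SRF-KO.

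**Figure D3:**
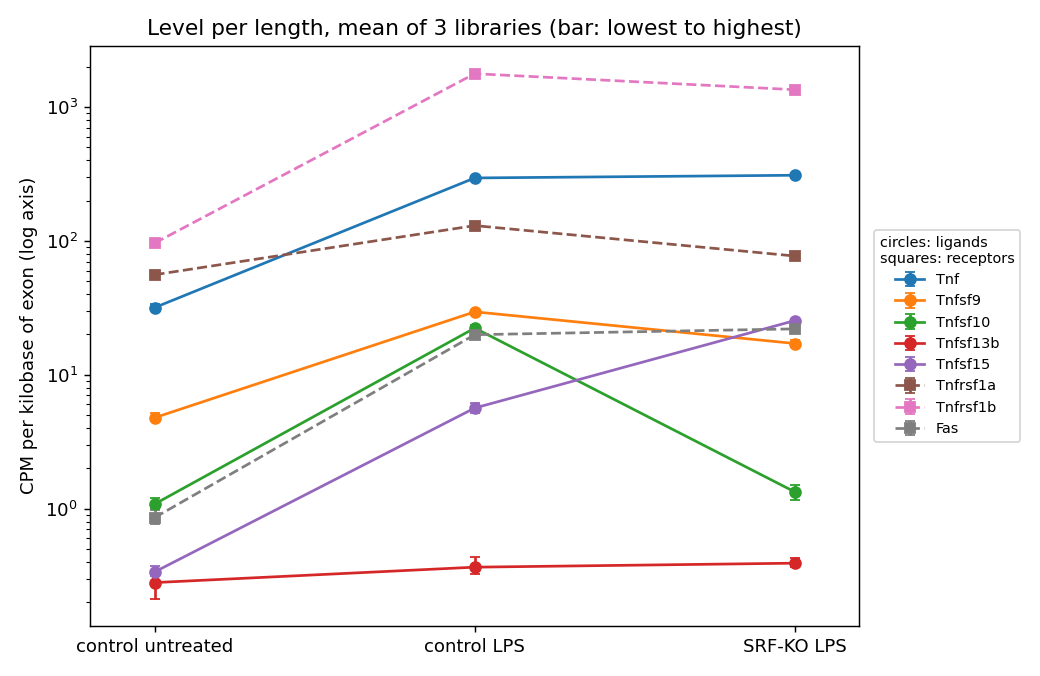
Mean level per length of each gene (CPM per kilobase of exon, log axis) in the 3 groups, with bars from the lowest to the highest of 3 libraries, circles for ligands and squares for receptors. The lines of Tnfsf10 and Tnfsf15 cross between LPS control (22.3 and 5.64) and SRF-KO (1.33 and 25.4).

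Partners of the 8 genes in the same superfamily were also followed. Tnfrsf9, which encodes CD137, the receptor of the Tnfsf9 product, was at 1.20 ± 0.243, 8.90 ± 0.833 and 13.0 ± 1.01 CPM (SD, n = 3). It rose with LPS (2.90, SE 0.167, edgeR adjusted p = 2.04e-18) and was higher in SRF-KO than in LPS control (0.54, SE 0.105, edgeR adjusted p = 2.03e-05), where its ligand was lower. Tnfrsf10b, the death receptor for TRAIL, was at 1.84 ± 0.354 and 1.51 ± 0.129 CPM without and with LPS (-0.29, SE 0.234, edgeR adjusted p = 0.243; with library totals -0.84, adjusted p = 0.00107) and was higher in SRF-KO at 4.12 ± 0.288 CPM (1.44, SE 0.198, edgeR adjusted p = 3.22e-08). Tnfrsf13b encodes TACI, a receptor for BAFF, and was at 40.4 ± 2.22, 40.2 ± 0.558 and 21.6 ± 1.11 CPM. It was lower in SRF-KO than in LPS control (-0.91, SE 0.0640, edgeR adjusted p = 1.19e-15), whereas with LPS the difference was -0.00 (SE 0.0594, edgeR adjusted p = 0.950; with library totals -0.55, adjusted p = 6.45e-11). Fasl, Tnfrsf25 (the TL1A receptor) and Tnfrsf13c (the BAFF receptor) had too few reads to test, with at most 2 in any group's 3 libraries.

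Other superfamily ligands moved in both directions. Of 13 listed, 6 had enough counts, of which 3 rose and 3 fell with LPS (median 0.23), and 1 was higher and 4 lower in SRF-KO (median -0.41; with library totals 2 and 2, median -0.06). Of all tested genes 40.8% rose and 40.8% fell with LPS. In SRF-KO 39.1% were higher and 37.9% lower (with library totals 61.1% and 21.1%, median 0.37). Tnfsf4, which encodes OX40 ligand, went from 0.363 ± 0.0371 to 11.6 ± 1.11 CPM with LPS (4.99, SE 0.208, edgeR adjusted p = 6.2e-23). It was at 1.50 ± 0.322 CPM in SRF-KO, lower by 2.92 on the log2 scale than LPS control (SE 0.153, edgeR adjusted p = 1.23e-19). Tnfsf12, which encodes TWEAK, fell with LPS from 70.4 to 21.3 CPM and was at 13.2 CPM in SRF-KO (-1.72 and -0.69). Tnfsf14 encodes LIGHT and also fell with LPS, from 6.20 to 0.424 CPM, but was higher in SRF-KO at 1.06 CPM (-3.87 and 1.31).

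Among 25 other receptors, 16 had enough counts. With LPS 8 rose and 5 fell (median 0.12; with library totals 6 and 9), and in SRF-KO 7 were higher and 7 lower than in LPS control (median 0.10; with library totals 9 and 5). All-gene shares were 40.8% and 40.8% with LPS (with library totals 21.0% and 67.8%). For SRF-KO they were 39.1% and 37.9% (with library totals 61.1% and 21.1%). Cd40, a costimulatory receptor of antigen-presenting cells, went from 19.3 ± 1.12 to 1161 ± 14.8 CPM with LPS and was at 249 ± 8.91 CPM in SRF-KO. Its log2 fold changes were 5.91 (SE 0.0514, edgeR adjusted p = 4.54e-45) and -2.22 (SE 0.0393, edgeR adjusted p = 5.63e-35). Tnfrsf14, the receptor for LIGHT, was at 10.3, 81.0 and 16.1 CPM (2.98 and -2.33). Tnfrsf11a encodes RANK, the receptor that drives osteoclast formation, and was lower in SRF-KO at 44.2 ± 1.55 CPM against 279 ± 7.22 CPM (-2.66), with 236 ± 2.65 CPM in untreated control. Its difference with LPS was 0.24 with TMM scaling and -0.31 with library totals, so it has no settled direction. Tnfrsf23, a mouse decoy receptor for TRAIL, fell with LPS from 17.4 to 5.78 CPM and was higher in SRF-KO at 32.1 CPM (-1.58 and 2.47).

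Downstream of the receptors, 24 adaptors and kinases were listed and all had enough counts. With LPS 17 rose and 5 fell (median 0.70; with library totals 12 and 9, median 0.15). In SRF-KO 5 were higher and 14 lower than in LPS control (median -0.43; with library totals 11 and 10, median -0.07). Of all tested genes 40.8% rose and 40.8% fell with LPS (with library totals 21.0% and 67.8%, median -0.57). In SRF-KO 39.1% of them were higher and 37.9% lower (median 0.01), and 61.1% and 21.1% with library totals (median 0.37). Traf1, an adaptor of TNFR2, was at 24.1 ± 1.87, 657 ± 35.1 and 277 ± 11.6 CPM (4.77 with LPS and -1.24 in SRF-KO). Traf2, which both TNF receptors recruit, was at 28.0, 107 and 47.4 CPM (1.94 and -1.18). Rnf31 encodes HOIP, the catalytic subunit of the linear ubiquitin ligase, and went from 48.8 to 141 CPM with LPS and stood at 48.7 CPM in SRF-KO (1.53 and -1.53). Map3k5 encodes ASK1, a stress kinase upstream of JNK and p38, and was at 23.1, 37.7 and 94.9 CPM, higher with LPS by 0.70 and higher again in SRF-KO by 1.34. With library totals its LPS difference shrank to 0.15 (edgeR adjusted p = 0.0479), and its SRF-KO difference was 1.69.

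Of 13 death receptor pathway genes, 12 had enough counts. With LPS 8 rose and 3 fell (median 0.66; with library totals 6 and 4), and in SRF-KO 2 were higher and 8 lower than in LPS control (median -0.57; with library totals 5 and 6, median -0.21). The all-gene shares were 40.8% higher and 40.8% lower with LPS (with library totals 21.0% and 67.8%). For SRF-KO they were 39.1% and 37.9% (with library totals 61.1% and 21.1%, median 0.37). Cflar encodes cFLIP, an inhibitor of caspase-8, and was at 131 ± 1.53, 967 ± 3.45 and 459 ± 9.83 CPM. Casp8, which encodes caspase-8 itself, was at 91.3, 270 and 123 CPM. Mlkl encodes the pore-forming protein of necroptosis and was at 38.2, 237 and 73.4 CPM. These 3 rose with LPS, by 2.88, 1.56 and 2.63, and were lower in SRF-KO than in LPS control, with differences of -1.07, -1.13 and -1.69. They passed with library totals as well. The list thus held an inhibitor of caspase-8 as well as caspase-8 itself.

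**Figure D4:**
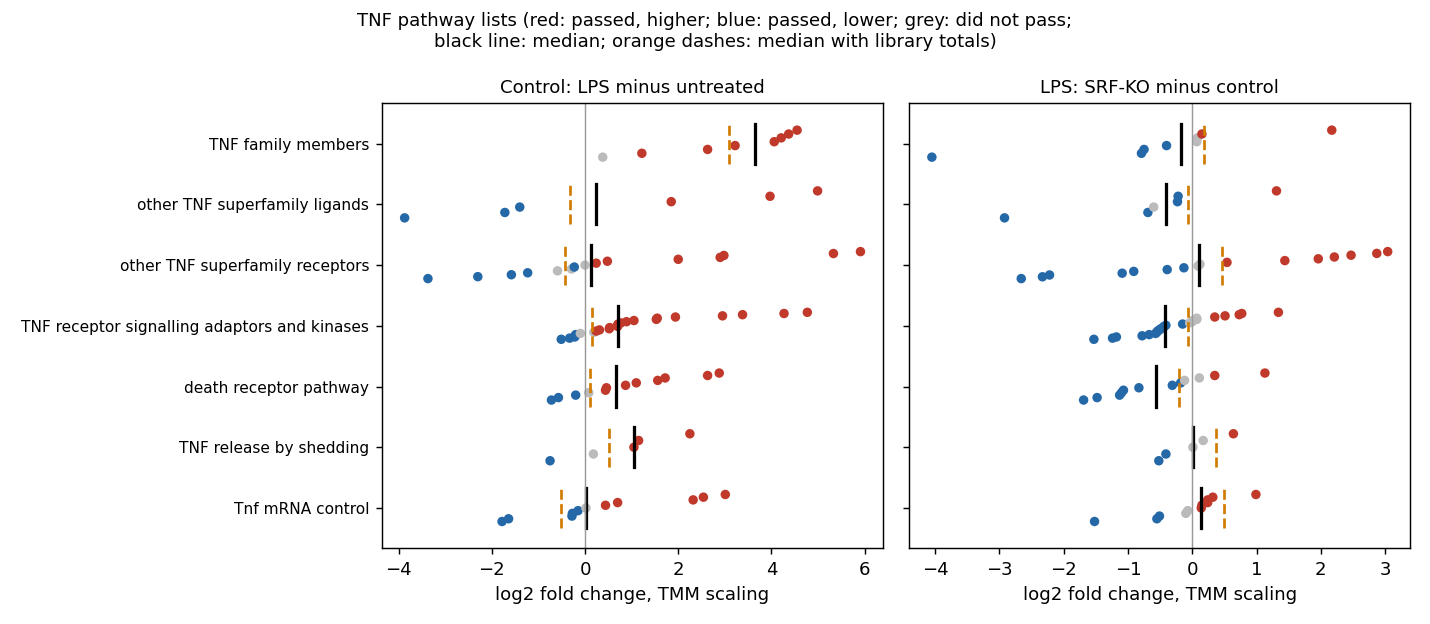
Log2 fold changes (TMM scaling) of the tested genes of the 7 lists, LPS control minus untreated control on the left and SRF-KO minus LPS control on the right, coloured by the edgeR call, with list medians under both scalings. Tnfrsf11b, at 0 counts in untreated control, has no point on the left but enters the list median. The 8 family members have a median of 3.64 on the left and -0.17 on the right, where their points run from -4.05 to 2.17.

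For each gene the tested genes with the closest pattern over the 9 libraries were found by the root mean square difference of log2 CPM, each gene centred on its own mean. Closest to Tnf were Eva1b (0.102), Acsl1 (0.107) and St3gal3 (0.118). Acsl1, a long-chain acyl-CoA synthetase gene, was at 115, 1245 and 1259 CPM in the 3 groups. Closest to Tnfsf10 were Trim30b (0.237), Klrk1 (0.258) and Lrrc4 (0.276). Klrk1, which encodes the NK cell receptor NKG2D, was at 0.183, 5.85 and 0.403 CPM, and Trim30b at 5.39, 96.8 and 8.11 CPM. Closest to Tnfsf15 were Arg1 (0.127), Gja1 (0.161) and F10 (0.260). Arg1, which encodes arginase 1, was at 2.81, 45.6 and 185 CPM, and Gja1, which encodes connexin 43, at 1.55, 29.4 and 143 CPM. Tnfrsf1b was closest to Jak2 (0.0524), Tnfaip3 (0.0550) and Adora2b (0.113). Tnfaip3 encodes A20, an inhibitor of TNF receptor signalling, and was at 35.1, 675 and 507 CPM. Tnfrsf1a was closest to Pagr1b (0.0348), Sash1 (0.0376) and Tgfbi (0.0461), and genes close to Tnfsf9 were Mocs1 (0.0903) and Arl5c (0.0921). Mocs1, which acts in molybdenum cofactor synthesis, was at 26.8, 156 and 100 CPM. Fas was closest to Ppfia3 (0.136), Malt1 (0.156) and Irak3 (0.218), and Tnfsf13b to Yy2 (0.0964), Polr2d (0.146) and Rfxank (0.152). All of these but Rfxank were also among the closest genes with library totals.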

How the data were processed

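Stranded TruSeq libraries were made from 9 mouse BMDM samples, according to the labels. STAR 2.5.4b, featureCounts, Trimmomatic, bcl2fastq 2.19 and edgeR, with build GRCm38, are listed in the submitters' processing notes. Neither the annotation release nor the strand setting is given in the sources used here. The deposited files hold raw whole-number read counts for 22524 Ensembl genes, per the file headers. Symbols were found for 22214 identifiers, and coordinates and exon lengths came from GENCODE mouse release 21 (GRCm38).

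Tests used edgeR 4.0.16 under R 4.3.3: filterByExpr kept 11560 genes, and all 9 libraries entered 1 robust quasi-likelihood fit with TMM scaling and group as the only term. P-values were adjusted by Benjamini-Hochberg over all tested genes, with a threshold of 0.05. SE was the log2 fold change over the square root of F. Groups and replicate numbers came from the titles. The labels do not say whether replicates were separate cultures or animals. P-values therefore cover no more than the differences among these libraries, and those may be technical. Replicate pairs differed by more than sampling noise. The steps were tested on simulated counts. Alternatives were library totals, upper quartile scaling, DESeq2 1.42.0, no filter, a replicate block, 2 groups only and leaving out each library.

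The 8 genes, the other lists and the rule for named genes were chosen with earlier results of these data known. That rule took the 8 genes, Srf, their superfamily partners, Adam17, up to 4 genes per list that passed in the LPS and SRF-KO comparisons by smallest p in the latter, and the 3 closest patterns per gene. Genes that it would also name are not reported here. Motifs, AU-rich sites and chromosome neighbours were added after the data were seen.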

Additional observations from a re-analysis of the deposited data

How the results depend on the processing

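Of 1032 fold changes of single genes under alternatives, 990 kept their direction and side of the threshold, among them 270 of 288 for the 8 genes. Of 144 counts of called genes, 137 stayed within 1.5 times the reported count. With library totals the LPS comparison called 2428 genes higher and 7835 lower, in place of 4722 and 4721, and the SRF-KO comparison under LPS called 7059 higher and 2434 lower, in place of 4521 and 4384. Among the 8 genes, SRF-KO against LPS control then gave 4 called higher in place of 2: Tnf (0.42) and Tnfsf13b (0.44) passed, and Tnfrsf1b (-0.04) did not. The all-gene median was then 0.37. Tnf also passed with upper quartile scaling (0.17), where that median was 0.12. DESeq2 called 1 of the 8 higher, as Fas (0.14) did not pass. Library totals turned the LPS difference of Tnfsf13b (-0.17), Srf (-0.17), Tnfrsf11a (-0.31) and Ltbr (-0.07), and the SRF-KO difference of Tnfsf8 (0.13) and Ltbr (0.22). DESeq2 gave 0.01 for Tnfrsf13b with LPS. Against untreated control, SRF-KO with LPS did not pass for Tnfsf10 with library totals (0.13) or upper quartile scaling (0.20), or for Tnfsf13b with library totals (0.27), upper quartile scaling (0.34) or DESeq2 (0.48). The cause was not tested.

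When each library was left out in turn, 502 of 516 fold changes kept their direction and side of the threshold, and 71 of 72 counts of called genes stayed within that range. The LPS difference of Tnfsf13b ranged from 0.22 to 0.53, past the threshold without the second untreated library, and its SRF-KO difference under LPS from -0.01 (without the second LPS control library) to 0.23. Fas in SRF-KO against LPS control ranged from 0.12 to 0.18, and the count of the 8 genes called higher there from 1 to 2. Against untreated control, Tnfsf10 ranged from 0.21 to 0.40 and Tnfsf13b from 0.30 to 0.61. Adam17 in SRF-KO ranged from -0.01 (without the second SRF-KO or the first LPS control library) to 0.03. Tnfrsf13b with LPS was at 0.01 and 0.04 without the first LPS control or the third untreated library.

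Correlations of same-numbered deviations ran from -0.0746 to 0.0971, and those of differently numbered ones from -0.11 to 0.111. Between SRF-KO and LPS control the same-numbered values were 0.0654, 0.0971 and 0.018, and the others ran from -0.0725 to 0.00672. With 3 libraries a group, values this small cannot show whether the replicate numbers pair the libraries. With the replicate number as a block, LPS called 4741 genes higher and 4726 lower, SRF-KO under LPS 4530 and 4389, and SRF-KO with LPS against untreated 4578 and 4653, and the calls of the 8 genes were as without it. Depth limits Tnfsf13b most, with 27 to 67 reads a library.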

Other observations

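Several of the 8 genes lie next to other superfamily genes, looked up after the data were seen, within 200 kb on GRCm38. Lta, which encodes lymphotoxin alpha, lies 1.16 kb from Tnf on chromosome 17 and was at 0.0695 ± 0.0822, 1.03 ± 0.241 and 0.674 ± 0.121 CPM (SD, n = 3) in untreated control, LPS control and SRF-KO. It rose with LPS (3.97, SE 0.588, edgeR adjusted p = 1.33e-07) and in SRF-KO it did not pass (-0.60, edgeR adjusted p = 0.108). Ltb, 3.06 kb away, had too few reads to test. Tnfsf8, which encodes CD30 ligand, lies 86.2 kb from Tnfsf15 and was at 16.2 ± 2.44, 58.4 ± 1.69 and 50.0 ± 0.596 CPM, a difference between SRF-KO and LPS control of -0.22 (0.13 with library totals) beside 2.17 for Tnfsf15. Tnfrsf8, the CD30 gene, lies 20.3 kb from Tnfrsf1b and was at 0.413, 16.7 and 12.7 CPM, with log2 fold changes of 5.33 for LPS and -0.39 for SRF-KO (-0.04 with library totals), beside 4.21 and -0.40 for Tnfrsf1b. Ltbr, the lymphotoxin beta receptor gene 35.5 kb from Tnfrsf1a, was at 76.1, 106 and 96.6 CPM, and its differences turned with the scaling. Tnfsf14 lies 81.7 kb from Tnfsf9 and was at 6.20, 0.424 and 1.06 CPM, with only 18 reads over the LPS control libraries. Its log2 fold changes were -3.87 for LPS and 1.31 for SRF-KO, beside 2.63 and -0.79 for Tnfsf9. Cd70 near Tnfsf9 and Cd27 near Tnfrsf1a were not tested for lack of reads.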
